A study of Brassica rapa subsp. chinensis with 24 samples.

Results

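Transcripts of 10 genes of plant light signaling were followed in Choy-sum (Brassica rapa subsp. chinensis, labelled wild type), a leafy vegetable of the cabbage family. The genes are the phytochromes PHYA and PHYB, the phytochrome-interacting factors PIF3, PIF4 and PIF5, the paired factors HY5 and HYH, and the B-box proteins BBX21, BBX22 and BBX32. They were taken from the count table by their Arabidopsis locus codes: AT1G09570 (PHYA), AT2G18790 (PHYB), AT1G09530 (PIF3), AT2G43010 (PIF4), AT3G59060 (PIF5), AT5G11260 (HY5), AT3G17609 (HYH), AT1G75540 (BBX21), AT1G78600 (BBX22) and AT3G21150 (BBX32). All 10 codes were found among 20564 distinct identifiers, and they label 31 of the 66566 rows. The rows of a code were summed in each library. The table holds codes only, so the names are those of the Arabidopsis genes that carry them, and rows that share a code may be copies or forms of a Choy-sum gene, which is not given in the sources used here. No measured threshold entered the choice, but the list was drawn up with the levels of these identifiers in these libraries known, so the levels, folds and calls below describe the genes and are not independent support for any of them.

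Whole leaves and roots came from seedlings with true leaves (day 8) and from mature plants before flowering (day 18). SAB plants grew from sterilized seeds dressed with 3 bacteria, Streptomyces, Agromyces and Bacillus, and untreated plants from seeds soaked in magnesium sulfate. All plants stood in pots of peat-moss soil at 22 degrees Celsius with 16 hours of light and 8 hours of dark. Each of the 8 groups of tissue, day and treatment had 3 biological replicates. How many plants made a library, and at which hour they were harvested, the sources used here do not say. In whole tissue, fewer cells of a type and less RNA per cell cannot be told apart.

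Phytochromes are photoreceptors for red and far-red light. In Arabidopsis, light-activated phytochromes trigger the breakdown of PIFs, basic helix-loop-helix factors that promote elongation in the dark and in shade. HY5 and its close relative HYH are basic leucine zipper factors that promote the opposite, light-grown programme, and both are marked for breakdown by the COP1 ubiquitin ligase in the dark. BBX21 and BBX22 promote HY5 action, whereas BBX32 lacks the second B-box and acts against it. Much of this control acts on the proteins, which were not measured here.

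Levels are given as CPM, counts scaled to a common library size, here after correction of the 24 libraries with TMM factors, which adjust for differences in RNA composition. Library totals ran from 28068078 to 37999455 estimated counts. The lengths of the rows are not known here, so levels are compared between groups and not between genes. The tissue labels matched their markers. The summed level of 4 leaf markers was 40910 to 123300 CPM in leaf libraries and 18.1 to 424.9 CPM in root libraries. That of 6 root markers was 1226 to 2878 CPM in root libraries and 2.14 to 24.1 CPM in leaf libraries. A gene was called where the Benjamini-Hochberg adjusted p over all identifiers in edgeR's quasi-likelihood test was below 0.05. Whether the libraries of compared groups overlapped is given as description only. The share of all identifiers without overlap was not counted, so a lack of overlap is not read as support for an uncalled difference.

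BBX32 was the only one of the 10 genes called in leaves at both ages, and it was higher in SAB plants each time. In leaves of day 8 it stood at 2.48, 4.19 and 3.85 CPM in the untreated libraries and at 11.3, 13.0 and 9.27 CPM in the SAB libraries. In leaves of day 18 it stood at 16.6, 13.4 and 19.6 CPM in untreated plants and at 60.7, 65.6 and 44.6 CPM in SAB plants. Every SAB leaf library lay above every untreated one of its day. The log2 fold was 1.65 (SE 0.23, edgeR adjusted p = 0.0156) at day 8, a 3.14-fold difference, and 1.80 (SE 0.22, edgeR adjusted p = 0.000828) at day 18, a 3.49-fold difference. The difference between these folds was 0.15 on the log2 scale (SE 0.32, edgeR adjusted p = 0.848). That comparison called 0 of the 10 genes and 2.46% of all identifiers. At an unadjusted p below 0.05 in edgeR there were 3 of the 10 genes and 18.1% of all identifiers. DESeq2 called 1 of the genes there, PHYA, and limma-voom 0. At day 8 the call was narrow. It was lost without any 1 of the 3 untreated libraries, SAB replicate 1 or SAB replicate 2 (edgeR adjusted p = 0.057 to 0.078). The log2 folds then stayed at 1.47 to 1.80. At day 18 it held under all 18 alternatives tried, with adjusted p from 1.21e-12 to 0.00503. The leaf markers, 4 photosynthesis genes, were at 71700 to 93920 CPM in untreated leaves and 40910 to 50790 CPM in SAB leaves of day 18. Of these markers 3 of 4 were called lower in SAB leaves, and their part in this result was not tested.

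In roots BBX32 lay lower in SAB plants at day 8 and higher at day 18. The untreated root libraries of day 8 stood at 24.3, 16.4 and 22.2 CPM and the SAB libraries at 12.5, 14.5 and 10.7 CPM. At day 18 the untreated roots stood at 36.3, 25.2 and 30.7 CPM and the SAB roots at 48.4, 52.9 and 41.4 CPM. The groups did not overlap at either day, but edgeR called neither difference. The log2 fold was -0.75 (SE 0.19, edgeR adjusted p = 0.151) at day 8 and 0.64 (SE 0.19, edgeR adjusted p = 0.186) at day 18. DESeq2 called both, with adjusted p of 0.0175 and 0.0369, and limma-voom neither. The change between them was called, where 1.07% of all identifiers were, at 1.39 on the log2 scale (SE 0.27, edgeR adjusted p = 0.0418). This call was narrow: it was lost with limma-voom (adjusted p = 0.0501), on library totals (0.0539), with the replicate number as a block (edgeR, 0.0976), and without any 1 of 10 of the 12 root libraries (edgeR adjusted p = 0.0557 to 0.122).

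The difference of the SAB effect on BBX32 between root and leaf was called at day 8 (as for 2.08% of identifiers), at -2.41 (SE 0.31, edgeR adjusted p = 0.000427), and kept its call in all 30 alternatives. At day 18, where 1.02% of identifiers were called, it was -1.16 (SE 0.30, edgeR adjusted p = 0.07). That fit treats all libraries as independent, although same-numbered leaf and root libraries of day 18 deviated together. With each such pair of a day and treatment as a block edgeR gave -1.15 (adjusted p = 0.0611). Within the pairs the log2 ratio of root to leaf was 1.13, 0.92 and 0.65 in untreated plants and -0.33, -0.31 and -0.11 in SAB plants, so with TMM factors BBX32 was higher in root in every untreated pair and higher in leaf in every SAB pair. On library totals the SAB pairs turned, with 63.0, 69.1 and 51.8 CPM in root and 55.1, 57.2 and 37.1 CPM in leaf, so no direction between the tissues is given for SAB plants. The day 18 difference was called by DESeq2 (adjusted p = 0.0181), by limma-voom (0.0496), on library totals (edgeR, 0.0217), and without untreated leaf replicate 3 (0.0439) or SAB leaf replicate 3 (0.0379) of day 18.

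BBX32 was the sum of a pair of rows that behaved differently. Row 1 stood at 14.7, 13.3 and 16.8 CPM in untreated leaves of day 18 and at 47.5, 46.3 and 44.2 CPM in SAB leaves, and its log2 fold was 1.64 (SE 0.21, edgeR adjusted p over all rows = 0.00312). Of all rows tested singly, 5.47% were called there. Row 2 stood at 1.89, 0.0715 and 2.81 CPM in untreated leaves and at 13.2, 19.3 and 0.37 CPM in SAB leaves of that day, a difference that did not pass (log2 fold 2.80, SE 1.28, edgeR adjusted p = 0.276). The roots of day 18 gave 5.72, 0.32 and 4.22 CPM for row 2 in untreated plants and 17.1, 18.4 and 1.60 CPM in SAB plants. Untreated replicate 2 and SAB replicate 3 were thus the low libraries of row 2 in leaves and roots alike, and in SAB leaves of day 18 the SD was 9.66 CPM for row 2 and 1.67 CPM for row 1. At day 8 row 1 stood at 10.1 ± 1.47 CPM (SD, n = 3) with SAB and 3.36 ± 0.96 CPM without. That row did not pass when tested singly, where 0.047% of rows were called (log2 fold 1.58, SE 0.21, edgeR adjusted p = 0.0507).

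**Figure D1:**
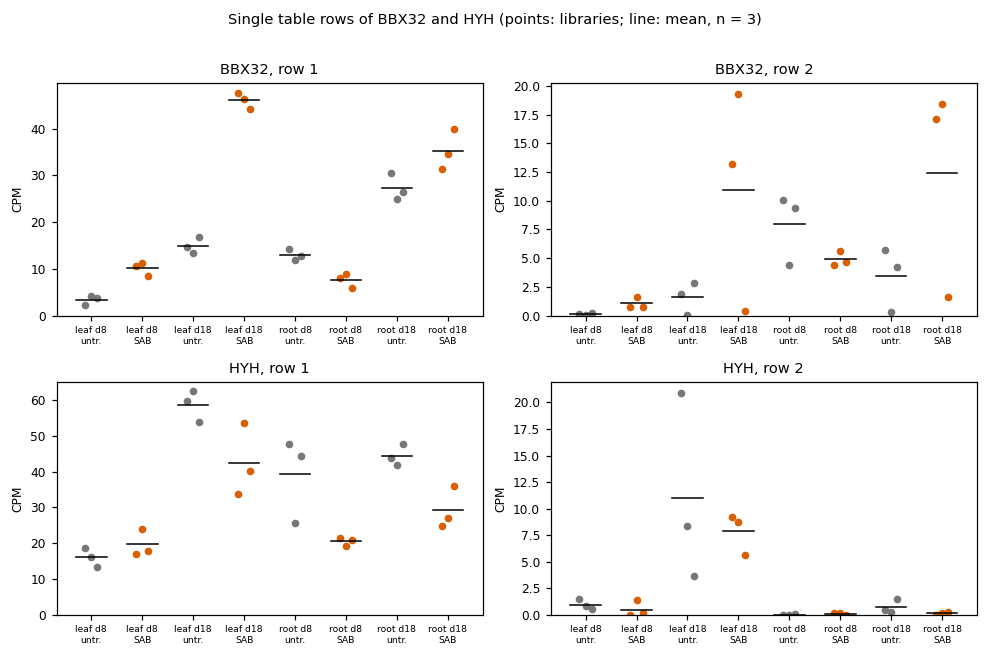
CPM (vertical axes, each from 0) of both rows of BBX32 and both rows of HYH in the 8 groups (untr., untreated; d8 and d18, days); points are libraries, lines are means of n = 3. Row 1 of BBX32 is tight within SAB leaves of day 18, at 44.2 to 47.5 CPM, whereas row 2 runs from 0.37 to 19.3 CPM there.

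PHYA was the other member called between SAB and untreated leaves. In untreated leaves of day 18 it stood at 33.7, 24.8 and 24.2 CPM, and in SAB leaves at 19.9, 17.7 and 18.1 CPM. All 3 SAB libraries lay below the untreated ones, and the log2 fold was -0.56 (SE 0.14, edgeR adjusted p = 0.0263). The call was lost without untreated replicate 1 (edgeR adjusted p = 0.0772), SAB replicate 2 (0.0731) or SAB replicate 3 (0.0595), and on library totals without scaling (0.131), which shift the median fold of all identifiers by 0.17. In leaves of day 8 PHYA was at 38.4, 33.8 and 39.6 CPM in untreated and 46.5, 38.0 and 45.0 CPM in SAB plants, with overlap (log2 fold 0.20, SE 0.14, edgeR adjusted p = 0.779). Roots of day 18 had 82.8, 80.5 and 79.1 CPM without SAB and 57.8, 58.6 and 66.3 CPM with SAB, which did not overlap and did not pass (log2 fold -0.39, SE 0.13, edgeR adjusted p = 0.229).

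Over the 10 genes, 1 was called in SAB leaves of day 8 (higher) and 2 in those of day 18 (1 higher, 1 lower). Of all 17706 identifiers tested in leaf, 0.424% were called at day 8 (0.39% higher, 0.0339% lower) and 14.4% at day 18 (7.91% higher, 6.52% lower). Since the genes were chosen with these libraries known, nothing is read from their count. The median log2 fold of the 10 genes was 0.14 at day 8 and -0.13 at day 18, against medians of -0.01 and -0.00 over all identifiers. In roots 8 of the 10 could be tested, since PIF4 and PIF5 did not pass the filter on low counts. Of these 8, edgeR called 0 at either day, where 0.0738% of 18973 identifiers were called at day 8 and 0.764% at day 18. At an unadjusted p below 0.05 there were 5 at each day, where 10.3% and 12.4% of all identifiers were. DESeq2 called 2 at day 8 and 1 at day 18, and limma-voom called 0 at both. The shares called of all identifiers are edgeR's and do not serve as background for the DESeq2 counts, from which nothing is read. The median log2 fold of the 8 genes was 0.04 at day 8 and -0.21 at day 18, against -0.02 and -0.00 over all identifiers.

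**Figure D2:**
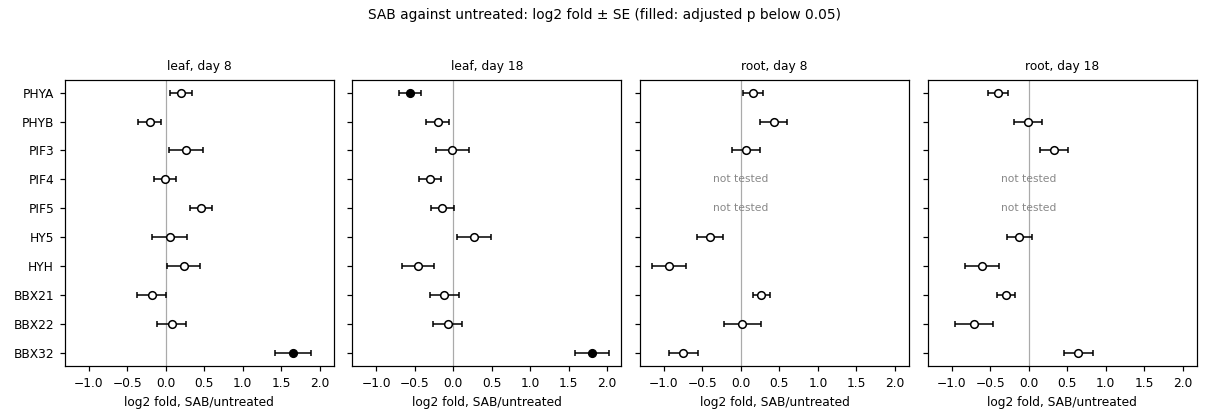
Log2 fold of SAB against untreated plants (horizontal axes, 1 shared scale) for the 10 genes in leaves and roots of day 8 and day 18; points are edgeR estimates, bars are 1 SE and filled points were called. BBX32 lies far to the right in both leaf panels, at 1.65 and 1.80, and PHYA is filled at -0.56 in leaves of day 18.

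PHYB, the main phytochrome of light-grown Arabidopsis, had group means of 8.42 to 11.0 CPM in leaf and 6.08 to 8.22 CPM in root. In the order of these means every group overlapped its neighbour. The order between tissues rests on the scaling: on library totals the means were 5.90 to 8.38 CPM in leaf and 7.79 to 11.2 CPM in root. Its largest SAB difference was in roots of day 8, at 6.66, 6.90 and 4.67 CPM in untreated and 8.28, 8.07 and 8.31 CPM in SAB plants. These groups did not overlap and the difference did not pass (log2 fold 0.42, SE 0.18, edgeR adjusted p = 0.443). In leaves of day 8 PHYB was at 9.15 to 10.4 CPM in untreated and 7.94 to 8.88 CPM in SAB plants. That difference was also without overlap and without a call (log2 fold -0.21, SE 0.15, edgeR adjusted p = 0.785).

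Among the PIFs, PIF4 and PIF5 were leaf transcripts. PIF4, which promotes elongation in shade and warmth in Arabidopsis, ran from 21.0 to 48.3 CPM in the 12 leaf libraries and did not exceed 0.12 CPM in any of the 12 root libraries. PIF5 ran from 47.3 to 137 CPM in leaf and did not exceed 0.16 CPM in 11 of the 12 root libraries. The exception was untreated root replicate 3 of day 18, with 0.70 CPM of PIF5. The same library had the highest leaf marker sum of all root libraries, 424.9 CPM, against 29.4 and 137 CPM in the other untreated roots of that day; the part of leaf RNA in its PIF5 value was not tested. PIF3, which acts early in the transition from dark to light, was present in both tissues, with group means of 10.7 to 13.9 CPM in leaf and 1.92 to 3.83 CPM in root.

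None of the PIFs was called between SAB and untreated plants. PIF5 in leaves of day 8 stood at 75.0, 47.3 and 62.0 CPM in untreated and 83.5, 82.0 and 90.1 CPM in SAB plants, without overlap (log2 fold 0.46, SE 0.15, edgeR adjusted p = 0.31). At day 18 the PIF5 groups overlapped, at 126 to 137 CPM in untreated and 106 to 130 CPM in the SAB group (log2 fold -0.14, SE 0.14, edgeR adjusted p = 0.578). PIF4 in leaves of day 18 stood at 48.3, 38.8 and 38.1 CPM in untreated and 32.9, 35.7 and 31.7 CPM in SAB plants, again without overlap and without a call (log2 fold -0.30, SE 0.14, edgeR adjusted p = 0.179). PIF3 values overlapped in every SAB comparison.

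HY5 and HYH had no called SAB difference, but HYH lay lower in SAB roots at both ages. In roots of day 8 HYH stood at 47.7, 25.6 and 44.3 CPM in untreated and 21.4, 19.4 and 21.0 CPM in SAB plants (log2 fold -0.93, SE 0.22, edgeR adjusted p = 0.119). In roots of day 18 it stood at 44.2, 42.2 and 49.2 CPM in untreated and 24.8, 27.3 and 36.2 CPM in SAB plants (log2 fold -0.60, SE 0.22, edgeR adjusted p = 0.27). The groups did not overlap at either day. The low untreated library of day 8, replicate 2, decided that comparison: without it the log2 fold was -1.16 and edgeR called it (adjusted p = 0.0307), as did DESeq2 with all libraries (adjusted p = 0.00427). In leaves of day 18 HYH stood at 80.6, 70.9 and 57.5 CPM in untreated and 42.9, 62.2 and 45.7 CPM in SAB plants, with overlap (log2 fold -0.46, SE 0.21, edgeR adjusted p = 0.176).

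HY5 stayed within 3.95 and 6.48 CPM in all 6 leaf libraries of day 8 and within 14.3 and 21.9 CPM in all 6 of day 18, and its SAB and untreated libraries overlapped in each of the 4 SAB comparisons. Its folds lay between -0.40 (SE 0.16, edgeR adjusted p = 0.434) in roots of day 8 and 0.27 (SE 0.22, edgeR adjusted p = 0.47) in leaves of day 18. HY5 transcripts thus had no call in leaf, where BBX32 was called at both ages. BBX32 acts against HY5 in Arabidopsis, but HY5 action was not measured, so nothing is read about it from these calls.

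BBX21 and BBX22 had no called SAB difference either. BBX21 in roots of day 18 stood at 113, 92.5 and 102 CPM in untreated and 82.4, 83.8 and 82.7 CPM in SAB plants (log2 fold -0.29, SE 0.11, edgeR adjusted p = 0.302). In roots of day 8 the order was the other way, at 113 to 132 CPM in untreated and 142 to 161 CPM in SAB plants (log2 fold 0.27, SE 0.11, edgeR adjusted p = 0.454). Neither pair of groups overlapped. The change between the days was not called by edgeR (-0.56, SE 0.16, edgeR adjusted p = 0.125) or limma-voom, while DESeq2 called it (-0.54, adjusted p = 0.0214). BBX22 in roots of day 18 stood at 3.20, 5.59 and 4.11 CPM in untreated and 2.76, 1.97 and 3.12 CPM in SAB plants, without overlap (log2 fold -0.71, SE 0.25, edgeR adjusted p = 0.259). In leaves both genes overlapped between SAB and untreated plants at both days.

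**Figure D3:**
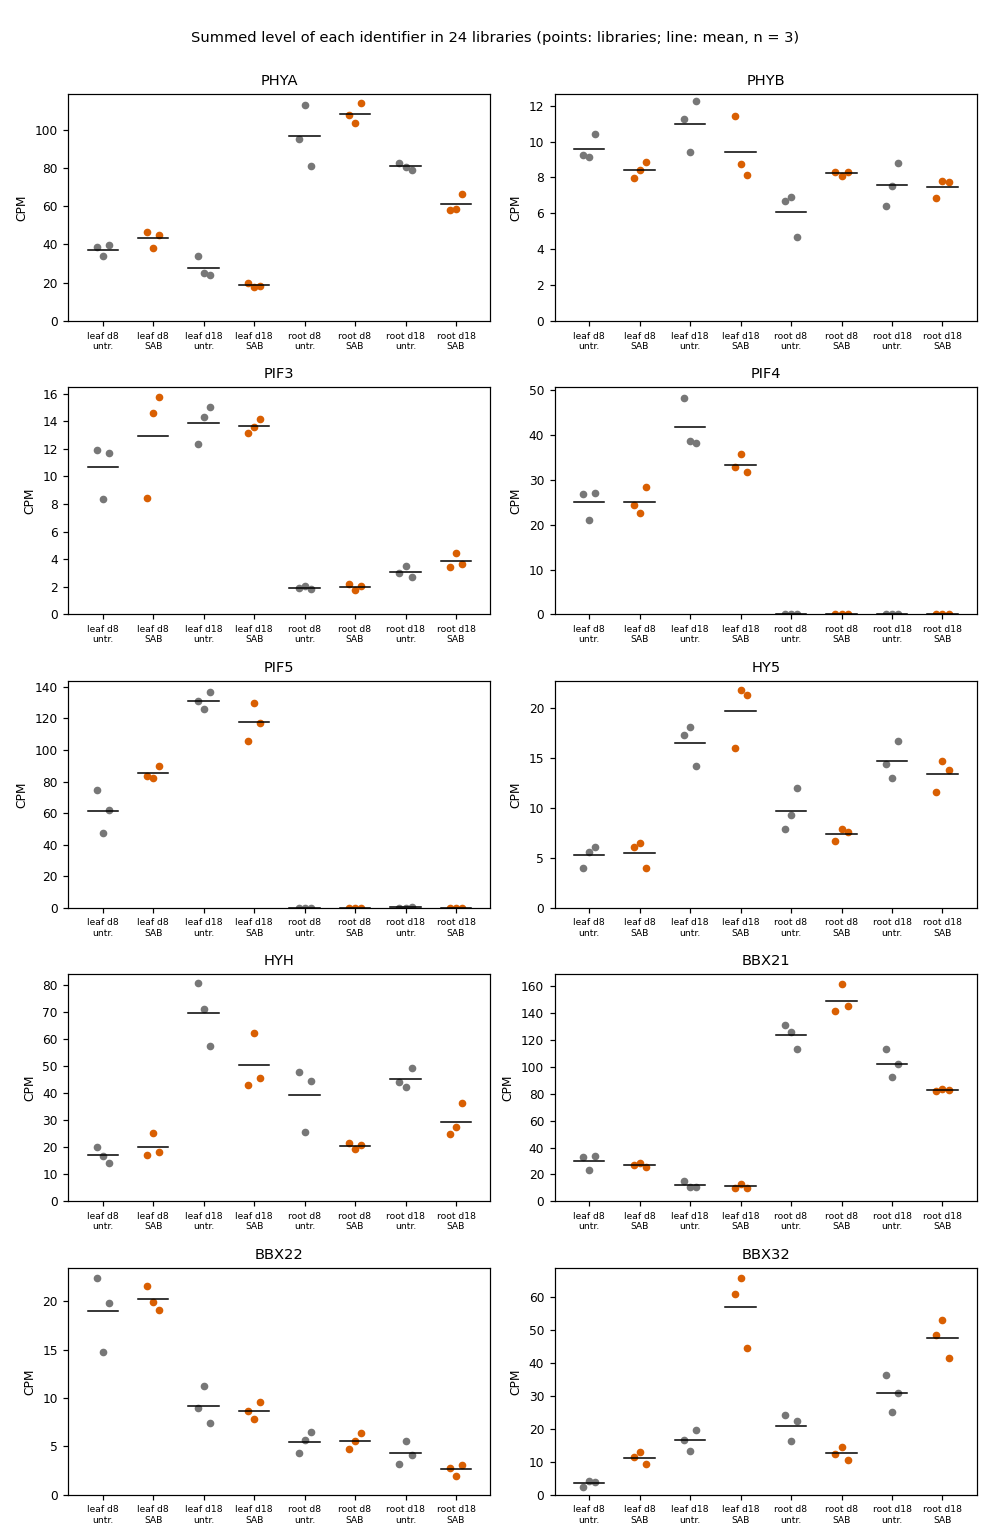
CPM (vertical axes, each from 0) of the 10 genes in the 24 libraries, grouped by tissue, day (d8, d18) and treatment (untr., untreated); points are libraries and lines are means of n = 3. PIF4 and PIF5 lie at the axis in all root groups, and in leaves of day 18 BBX32 has a mean of 57.0 CPM with SAB and 16.5 CPM without.

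In untreated leaves, 5 of the 10 were higher at day 18 than at day 8 and 3 were lower, where 40.6% of all identifiers were called (20% higher, 20.5% lower). The 3 with the largest rise were BBX32, HYH and HY5. BBX32 rose from 3.50 ± 0.91 to 16.5 ± 3.11 CPM (SD, n = 3), by 2.22 on the log2 scale (SE 0.24, edgeR adjusted p = 4.29e-05). HYH rose from 17.0 ± 3.03 to 69.7 ± 11.6 CPM, by 2.04 on the log2 scale (SE 0.22, edgeR adjusted p = 4.3e-05). HY5 rose from 5.25 ± 1.09 to 16.6 ± 2.04 CPM, by 1.65 on the log2 scale (SE 0.23, edgeR adjusted p = 0.000239). PIF5 (log2 fold 1.10, SE 0.15) and PIF4 (0.74, SE 0.14) rose as well, with edgeR adjusted p of 0.000201 and 0.00183.

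BBX21 and BBX22, partners of HY5 in Arabidopsis, went down with age in untreated leaves. BBX21 fell from 33.1, 23.2 and 33.9 CPM at day 8 to 15.3, 10.3 and 11.0 CPM at day 18 in untreated leaves (log2 fold -1.30, SE 0.19, edgeR adjusted p = 0.000376). BBX22 fell from 22.4, 14.8 and 19.8 CPM to 9.01, 11.2 and 7.39 CPM (log2 fold -1.04, SE 0.19, edgeR adjusted p = 0.00132). Of the B-box genes chosen as members, BBX21 and BBX22, which promote HY5 action in Arabidopsis, were thus lower in the older leaves. BBX32, which opposes it, was higher. Age differences of other B-box genes are not given here, and HY5 action was not measured. PHYA fell by 0.43 on the log2 scale (SE 0.14, edgeR adjusted p = 0.0316), a call that was lost without any 1 of 4 of the 6 untreated leaf libraries and on library totals (edgeR adjusted p = 0.0727 to 0.111). PHYB and PIF3 were not called.

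In untreated roots 2 of the 8 genes tested were higher at day 18 and 0 lower, where 16.5% of identifiers were called (8.22% higher, 8.25% lower). PIF3 rose from 1.90, 2.04 and 1.81 CPM to 2.98, 3.48 and 2.74 CPM (log2 fold 0.72, SE 0.18, edgeR adjusted p = 0.0226). HY5 rose from 7.86, 9.34 and 12.1 CPM to 14.4, 13.0 and 16.7 CPM (log2 fold 0.64, SE 0.16, edgeR adjusted p = 0.024). The PIF3 call was lost without any 1 of 3 of the 6 untreated root libraries, replicate 1 or 3 of day 8 or replicate 2 of day 18 (edgeR adjusted p = 0.0512 to 0.0813). The HY5 call was lost without any 1 of 4, replicate 1 or 2 of day 8 or replicate 1 or 3 of day 18 (edgeR adjusted p = 0.0516 to 0.0833). BBX32 in roots did not pass as a sum (log2 fold 0.59, SE 0.19, edgeR adjusted p = 0.0566), while DESeq2 called it (adjusted p = 0.0233), as did edgeR without untreated replicate 1 of day 8 (0.0424). Its rows went apart: row 1 rose from 13.0 ± 1.10 to 27.3 ± 2.93 CPM (SD, n = 3), without overlap (log2 fold 1.03, SE 0.17, edgeR adjusted p = 0.00936), and row 2 was not called (log2 fold -1.27, SE 0.96, edgeR adjusted p = 0.537). Tested as single rows, of which 5.5% were called, the members with a called row were thus BBX32 and HY5 (row 2, log2 fold 0.89, edgeR adjusted p = 0.0285), and PIF3 had none. The untreated libraries enter both the age differences and the SAB differences, so these are not independent of each other.

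**Figure D4:**
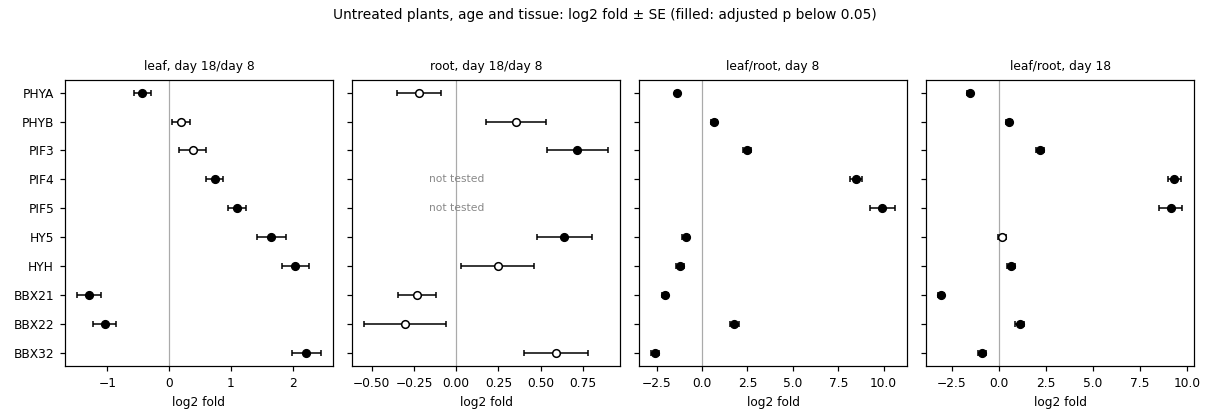
Log2 folds in untreated plants of day 18 against day 8 and of leaf against root (horizontal axes, each panel its own scale) for the 10 genes; points are edgeR estimates, bars are 1 SE and filled points were called. In leaves BBX32, HYH and HY5 lie right of 0 and BBX21 and BBX22 left of it; the leaf against root panels are stretched by PIF4 and PIF5, which were near 0 CPM in root.

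Between tissues, all 10 genes were called in untreated plants of day 8 (5 higher in leaf, 5 lower) and 9 of 10 at day 18 (6 higher, 3 lower), where 61.6% (29% higher, 32.7% lower) and 61.5% (28% higher, 33.4% lower) of all identifiers were called. Scaling matters here: on library totals the median log2 difference of leaf minus root over all identifiers shifted by -0.75 at day 8 and -0.76 at day 18. PHYA, BBX21 and BBX32 were lower in leaf and PIF3, PIF4 and PIF5 higher in leaf at both days under either scaling. PHYA was at 27.5 ± 5.31 CPM in untreated leaves and 80.8 ± 1.87 CPM in untreated roots of day 18 (log2 difference -1.55, SE 0.13, edgeR adjusted p = 5.02e-09). BBX21 was at 12.2 ± 2.72 CPM in those leaves and 103 ± 10.4 CPM in those roots (log2 difference -3.07, SE 0.16, edgeR adjusted p = 4.14e-12). These fits treat all libraries as independent, although same-numbered leaf and root libraries of day 18 deviated together. With each such pair as a block the edgeR adjusted p at day 18 was 1.8e-06 for PHYA and 8.85e-09 for BBX21. For PHYB the sign turned with the scaling, from 0.66 to -0.11 at day 8 and from 0.53 to -0.23 at day 18, and for HYH at day 18 from 0.62 to -0.13, so no direction is given for these. HY5 at day 18 was not called with TMM factors (log2 difference 0.17, SE 0.20, edgeR adjusted p = 0.477), and on library totals it was called lower in leaf (-0.58, edgeR adjusted p = 0.0156). BBX22 was higher in leaf with TMM factors at both days, and on library totals its day 18 call was lost (0.34, edgeR adjusted p = 0.183).

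The tissue difference itself changed with age for 4 of the 10 genes, where 21.1% of all identifiers were called (10.4% higher, 10.8% lower); this comparison was added after the values were seen. The log2 difference of leaf minus root was higher at day 18 than at day 8 by 1.83 for HYH (SE 0.31, edgeR adjusted p = 0.000364), by 1.67 for BBX32 (SE 0.31, edgeR adjusted p = 0.000692) and by 1.06 for HY5 (SE 0.29, edgeR adjusted p = 0.0116). It was lower by 1.03 for BBX21, a change of -1.03 (SE 0.22, edgeR adjusted p = 0.00198). With each pair of leaf and root libraries as a block all 4 stayed called. The edgeR adjusted p was then 0.00288 for HYH, 0.00162 for BBX32, 0.00905 for HY5 and 0.00329 for BBX21. On library totals the median over all identifiers shifted by only -0.01 in this comparison.

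The rows behind PHYA also differed between tissues. Row 4 made up 92.8% of the summed PHYA values in untreated leaves of day 18 and 57.5% in untreated roots of that day. Row 1 was at 0 in all 3 of those leaf libraries and at 9.70, 8.46 and 8.10 CPM in the root libraries. Row 3 stood at 1.77, 2.15 and 1.27 CPM in those leaves and at 20.6, 18.1 and 19.4 CPM in those roots. In SAB roots of day 18 row 3 was at 5.14, 11.8 and 6.87 CPM, below all untreated roots, but it did not pass when tested singly, where 0.388% of rows were called (log2 fold -1.26, SE 0.30, edgeR adjusted p = 0.202). For PHYB, PIF5, HYH and BBX22 a single row made up 94.3% to 99.7% of the sum over all libraries, and PIF4 had 1 row. HY5 was split, with 56.4% in row 2 and 37.6% in row 3, and both of these rows rose with age in untreated leaves (log2 folds 1.81 and 1.55, edgeR adjusted p = 0.000147 and 0.0297), as 20.7% of all rows were called there.

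Of 38 other genes of the light pathway, 36 had rows in the table. The list holds other photoreceptors, the COP1, SPA and DET1 repressors, further helix-loop-helix and B-box factors, the phytochrome A transport genes and light-responsive targets. In SAB leaves of day 8, edgeR called 0 of the 33 tested, against 0.424% of all identifiers. At an unadjusted p below 0.05 in edgeR there were 4 of the 33, where 9.02% of all identifiers were. DESeq2 called 1 and limma-voom 0. In SAB leaves of day 18, 5 were higher and 4 lower of 33, against 7.91% and 6.52% of all identifiers, with a median log2 fold of -0.04. The 3 with the smallest adjusted p were FHL, CHS and PIF1. FHL, which with its relative FHY1 carries PHYA into the nucleus in Arabidopsis, stood at 20.5, 22.0 and 22.5 CPM in untreated and 66.3, 59.0 and 65.8 CPM in SAB plants (log2 fold 1.57, SE 0.09, edgeR adjusted p = 3.05e-05). PHYA was lower in the same leaves, with a call that was lost without some single libraries and on library totals. A link between FHL and PHYA was not tested.

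CHS, chalcone synthase, the entry enzyme of flavonoid synthesis and a target of HY5 in Arabidopsis, stood at 204, 201 and 194 CPM in untreated and 479.9, 369.9 and 371 CPM in SAB leaves of day 18 (log2 fold 1.04, SE 0.12, edgeR adjusted p = 0.000709). PIF1, a factor that represses seed germination and greening in the dark in Arabidopsis, stood at 31.5, 36.0 and 21.7 CPM in untreated and 11.3, 20.2 and 12.1 CPM in SAB plants (log2 fold -1.02, SE 0.24, edgeR adjusted p = 0.0168). The groups did not overlap for any of these 3 genes. The other called genes, named after their values were seen, were BBX31 (1.37), ELIP1 (0.98) and FAR1 (0.53) on the higher side and PAR1 (-0.95), BBX20 (-0.86) and the blue light receptor CRY1 (-0.48) on the lower side, with edgeR adjusted p of 0.0168 to 0.0422. Of the 5 COP1, SPA and DET1 repressors that could be tested 0 were called, where 14.4% of all identifiers were. Nothing is read from so small a count.

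In SAB roots edgeR called 0 of the 33 tested at day 8 and 2 at day 18, against 0.0738% and 0.764% of all identifiers. At day 8, 1 of the 33 had an unadjusted p below 0.05 in edgeR, as 10.3% of all identifiers did. DESeq2 and limma-voom called 0 at that day. BBX25, a B-box protein that acts against HY5 in Arabidopsis, stood at 11.7, 13.7 and 12.1 CPM in untreated and 7.66, 7.77 and 5.93 CPM in SAB roots of day 18 (log2 fold -0.80, SE 0.13, edgeR adjusted p = 0.0224). ATHB2, a homeodomain factor induced by shade in Arabidopsis, stood at 9.96, 9.35 and 9.93 CPM in untreated and 13.2, 14.6 and 13.8 CPM in SAB roots (log2 fold 0.52, SE 0.10, edgeR adjusted p = 0.0322). Neither gene's groups overlapped.

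**Figure D5:**
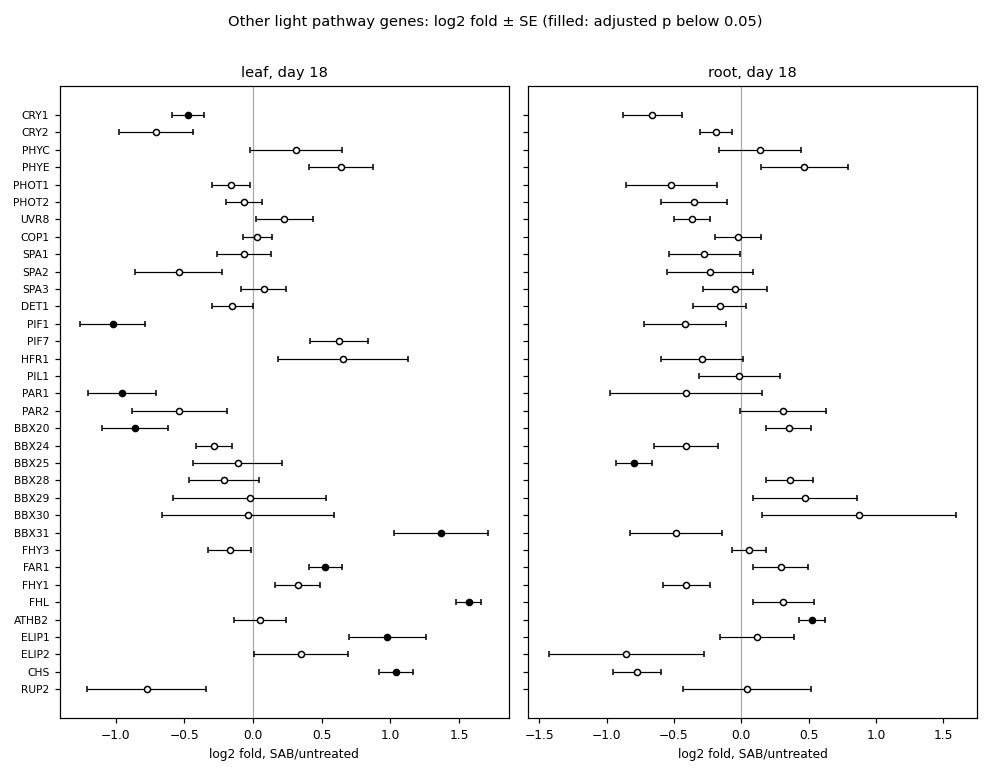
Log2 fold of SAB against untreated plants (horizontal axes, each panel its own scale) for the other light pathway genes in leaves and roots of day 18; points are edgeR estimates, bars are 1 SE, filled points were called, and a gene with no point in a panel was not tested there. FHL has the largest called rise in leaf, at 1.57, and BBX25 and ATHB2 are the 2 filled points in root.

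The identifiers whose levels over the 8 group means most resembled BBX32 were AT4G24380 (Pearson r = 0.986 on log2(CPM + 1)), AT1G53420 (r = 0.985) and AT1G17620 (r = 0.98). They came from 15958 identifiers that reached a group mean of 5 CPM. AT4G24380 went from 13.3 CPM in untreated to 23.4 CPM in SAB leaves of day 8 and from 38.8 to 98.8 CPM at day 18. In roots its means were 53.8 CPM in untreated and 30.8 CPM in SAB plants of day 8, and 68.9 and 109 CPM at day 18. AT4G24380 was picked by these same means, so its likeness to BBX32 follows from the choice and is no separate result. For HY5 the most similar identifiers were AT4G10040, AT4G35070 and AT1G09140 (r = 0.983, 0.982 and 0.982). These are descriptions over 8 means that share libraries and scaling.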

How the data were processed

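Polyadenylated RNA of 24 libraries was sequenced as paired-end reads, per the labels' protocols. The submitters' processing notes name kallisto, Bowtie2 and Trim Galore, with no version, role, index or annotation (not given in the sources used here). Values as deposited by the authors are estimated counts, unscaled and mostly not whole (0.99% of values above 0 are whole numbers). They were summed per identifier and rounded to whole numbers. edgeR 4.0.16 (limma 3.58.1, R 4.3.3) was run with TMM factors, the default filter on low counts (minimum count 10, total 15), robust quasi-likelihood tests and Benjamini-Hochberg adjustment over all identifiers tested at 0.05, on the 12 libraries of a tissue or, between tissues, on all 24. SE is the size of the log2 fold over the root of the F statistic. Rows were also tested singly. Alternatives were DESeq2 1.42.0, limma-voom, other scaling, no filter, the replicate block and leaving out each library. On simulated counts for SAB leaves of day 18 (17498 identifiers), 100 of 100 4-fold and 55 of 100 2-fold changes were recovered; for SAB roots of day 18 (18716 identifiers), 100 and 43, with 8 and 9 false calls. The 2-fold counts come from 1 random draw and vary between draws, so they rank neither tissue. The simulation gave every identifier the same dispersion and no age difference, and drew the changed ones above a minimum mean count. It checks that the fit runs correctly and does not give the power of the tests on the measured counts.

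The members and lists were chosen with earlier results of these data known. All 10 members are named; of the other pathway genes, the 3 with the smallest adjusted p called in a SAB comparison; for likeness, the 3 highest correlations for BBX32 and HY5. Gene names are those of the Arabidopsis locus codes, which the table does not pair with names; 0 of the 10 codes were found in the reference gene table. Replicate numbers were checked for pairing by the correlation of deviations from group means: same-numbered leaf and root libraries of day 18 correlated at 0.386 to 0.478, those of day 8 at 0.008 to 0.154, and untreated and SAB libraries at -0.07 to 0.205. The numbers thus pair leaf and root at day 18. Low correlations elsewhere cannot show that those libraries are unpaired. The labels call the replicates biological and independent, and do not say how many plants each holds.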

Additional observations from a re-analysis of the deposited data

Results flagged for a closer look

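Some effects differed between tissues or ages by the test of the difference itself (edgeR quasi-likelihood test, adjusted over all identifiers), and those named below are ones a reader may want to follow. For BBX32 the SAB effect in roots rose between day 8 and day 18 by 1.39 on the log2 scale (SE 0.27, edgeR adjusted p = 0.0418), a call that was lost in 13 of 18 alternatives, limma-voom and the replicate block among them. At day 8 its effect in root minus that in leaf was -2.41 (SE 0.31, edgeR adjusted p = 0.000427), called in all 30 alternatives. In untreated plants the leaf minus root difference changed between the days by 1.06 for HY5, 1.83 for HYH, 1.67 for BBX32 and -1.03 for BBX21 (edgeR adjusted p = 0.0116, 0.000364, 0.000692 and 0.00198). These changes stayed called with leaf and root pairs as a block, at edgeR adjusted p of 0.00162 to 0.00905. In that comparison 21.1% of all identifiers were called. Of the other pathway genes, 15 were called higher and 3 lower of 34 tested there. They are not named here, so the changes are not particular to the members.

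Of the other pathway genes, FHL and CHS had SAB effects in leaves that were higher at day 18 than at day 8, by 1.26 (SE 0.13, edgeR adjusted p = 0.00367) and 0.95 (SE 0.18, edgeR adjusted p = 0.0294). The first was called in all 18 alternatives and the second in 10 of them: CHS lost its call with the replicate block (edgeR adjusted p = 0.0538) and without any 1 of 7 leaf libraries, all 6 of day 8 and untreated replicate 1 of day 18 (edgeR adjusted p = 0.05 to 0.0812). At day 18 their SAB effects in root minus those in leaf were -1.26 (SE 0.25, edgeR adjusted p = 0.0172) and -1.81 (SE 0.21, edgeR adjusted p = 0.000433), both called in all 30 alternatives. CHS stood at 22.8, 19.5 and 16.5 CPM in untreated roots of day 18 and at 12.4, 10.5 and 11.2 CPM in SAB roots, without overlap and without a call (log2 fold -0.77, SE 0.18, edgeR adjusted p = 0.088), while it was called higher in SAB leaves. For BBX31, a small B-box protein named here after its values were seen, the SAB effect in root minus that in leaf was -2.76 at day 8 (SE 0.70, edgeR adjusted p = 0.0453). That call held in 8 of 30 alternatives and was lost with limma-voom (adjusted p = 0.22) and with the replicate block (edgeR, 0.0851). Its levels were then at most 0.78 CPM in leaf and 0.92 CPM in root.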

How the results depend on the processing

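Over all members and comparisons, 2736 of 2796 alternative log2 folds kept their side of the threshold; 38 lost a call, 17 gained one and 5 turned sign where 1 of both values was called. The turned ones are PHYB at -0.11 and -0.23 and HYH at -0.13 (leaf minus root on library totals, day 8, day 18 and day 18), HY5 at -0.58 (day 18), and PIF5 at 3.16 for the change of leaf minus root with age without untreated root replicate 3 of day 18 (range -1.44 to 3.16 over the libraries left out). Counts of members called moved as follows. Leaving out 1 library gave 0 to 1 in leaves of day 8, 1 to 2 in leaves of day 18, 0 to 1 in roots of day 8, 0 to 1 for the change with age in root, 1 to 3 for age in untreated roots, 1 to 2 for root minus leaf at day 8 and 0 to 1 at day 18. DESeq2 called 2 in roots of day 8, 1 in roots of day 18, 1 for the change with age in leaf, 2 for that in root, 2 for root minus leaf at day 8 and 1 at day 18. No DESeq2 share of all identifiers is given beside these counts, so nothing is read from them. Library totals gave 1 in leaves of day 18, 0 for the change with age in root and 1 for root minus leaf at day 18; limma-voom gave 0 for the change with age in root and 1 for root minus leaf at day 18. Tested as single rows, 0 members had a called row in leaves of day 8, 1 in leaves of day 18 and 0 for the change with age in root. With the replicate block the change with age in root had 0 calls (BBX32 adjusted p = 0.0976); it moved no other count of members by over 1.5 times. The counts over all identifiers moved too: leaving out 1 library gave 2 to 131 for the 75 of SAB leaves of day 8, 0 to 67 for the 14 of SAB roots of day 8, 53 to 238 for the 145 of SAB roots of day 18, 48 to 599 for the 435 and 10 to 548 for the 203 of the change with age in leaf and root, 249 to 485 for the 410 and 134 to 329 for the 201 of root minus leaf at day 8 and day 18, and 1992 to 3360 for the 3126 of age in untreated roots. The cause of these shifts was not tested. Library totals shifted the median fold of all identifiers by 0.17 in SAB leaves of day 18 and 0.11 in SAB roots of day 8.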
